A study of Mus musculus with 31 samples.

Results

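CD4+ and CD8+ T cells of the choroid plexus were compared in mice raised in a standard environment (SE), using 15 of the 31 libraries of the study. The members were chosen by the cell type and environment in the sample titles, which gave 8 CD4 SE and 7 CD8 SE libraries, and all 485 genes of the deposited table were tested. The mice were female C57BL6/J, and from weaning, 4 weeks after birth, they lived for 4 weeks in a plain cage without objects. The other 16 libraries (9 CD4 and 7 CD8) came from mice of the same strain and sex that lived in a large cage with wheels, toys and tunnels (enriched environment, EE), and they serve here only as a second set of mice in which the same difference was measured. Cells were sorted as CD45+ CD11b- CD3+ and then CD4+ or CD8+, and each library was made from a pool of 6 to 20 cells. The animals that an experiment took from one environment shared a cage, so cage was not replicated within an experiment.

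CD4+ and CD8+ T cells are the main lineages of T lymphocytes that carry the alpha beta T cell receptor. CD4 and CD8 are the coreceptors that bind MHC class II and MHC class I, and the cells that carry them are known as helper and cytotoxic T cells, respectively. CD8+ memory cells typically store message for the chemokine CCL5 and for granule proteins, and CD4+ cells act mainly through cytokines and costimulatory molecules. The choroid plexus of the brain ventricles has an epithelium that produces cerebrospinal fluid and separates it from the blood. The plexus holds many of the T cells of the healthy brain.

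All values are normalised UMI counts, in which each captured RNA molecule was counted once and the count was divided by a size factor of its library. Differences are CD4 minus CD8 on the scale log2(normalised count + 1), which compresses differences at low values, and a positive difference means higher in CD4. A gene was called when the adjusted p of limma was under 0.05. Since each library is RNA of a small pool, fewer cells that express a gene and less RNA of it per cell cannot be told apart.

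The UMI total over the table ran from 2499 to 19411 per library, and 429 to 483 genes were detected. Neither the number of sorted cells (11.8 on average in CD4, 12.3 in CD8, exact permutation p 0.836) nor the log2 UMI total (difference 0.22, exact permutation p 0.687) differed between the cell types beyond the spread between libraries. The titles carry a first number, 1 or 2, whose meaning the labels do not give, and it was used as a batch term. It was 1 in 5 CD4 and 5 CD8 libraries (2499 to 10089 UMIs) and 2 in 3 CD4 and 2 CD8 libraries (8979 to 19411 UMIs). The last 2 of these, CD8 SE replicates 5 and 6, share an animal number in their titles and may not be independent mice. The genes that define other cell types were mostly not in the table, from which the authors had removed genes of low abundance. The table held none of the 11 B cell, 10 natural killer cell, 8 erythrocyte and 14 endothelial and stromal markers that were looked up, and 1 of 23 myeloid markers (Cst3, 6.41 ± 7.08 in CD4 and 4.41 ± 3.99 in CD8). Of 16 markers of the choroid plexus epithelium it held Ttr, the thyroid hormone carrier that this epithelium secretes, and Enpp2. Their summed level was 76.4 to 205 in CD4 and 85.9 to 227 in CD8 libraries, and Ttr alone reached 141 ± 44.5 and 102 ± 44.3 (log2 difference 0.51, SE 0.19, adjusted p 0.142, limma). The part of this tissue RNA in the differences below was not tested.

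Of the 485 genes, 19 passed the test (3.92%). On the recovered UMI counts edgeR called 26 genes (5.36%), of which 18 were among the 19, and DESeq2 called 27 (5.57%), of which 16 were. There were 13 genes higher in CD4 (2.68% of all genes) and 6 higher in CD8 (1.24%). The CD8 side held the coreceptor chains Cd8a and Cd8b1, the chemokine Ccl5, the granule protein Nkg7, the surface protein Ly6c2 and the ribosomal protein Rps2. The CD4 side held Cd4, the nuclear noncoding RNA Malat1, the mitochondrial ribosomal RNAs mt.Rnr1 and mt.Rnr2, the interferon induced Ifi27l2a, 3 heat shock genes with a pseudogene of one of them (Hspa1a, Hsp90aa1, Dnaja1 and Gm12346), the egress receptor S1pr1, the splicing factor Srrm2, and the actin regulators Tmsb4x and Arhgdib. The median difference over all genes was 0.09, with 284 genes above 0 and 201 below. When all libraries were rescaled to the same total over the table, the median became -0.01 and 19 genes were again called, but 9 were higher in CD4 and 10 higher in CD8. Arhgdib, Hspa1a, Tmsb4x and mt.Rnr2 were then no longer called. With the mouse as a fixed term, which used the 11 libraries of the 5 mice with both cell types, 9 genes were called: Ccl5, Malat1, Cd8a, Nkg7, Rps2, Cd8b1, mt.Rnr1, Tmsb4x and Gm12346. The columns of CD8 replicates 5 and 6 carry the animal numbers 5 and 6 together. Read as a pool of both animals, an alternative added after the data were seen, they share an identity with CD4 replicates 6 and 8, and the fixed term then called 13 of the 19 genes (12 libraries), with Cd4, Dnaja1, Hsp90aa1, Ifi27l2a and Ly6c2 among them and without Tmsb4x.

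**Figure D1:**
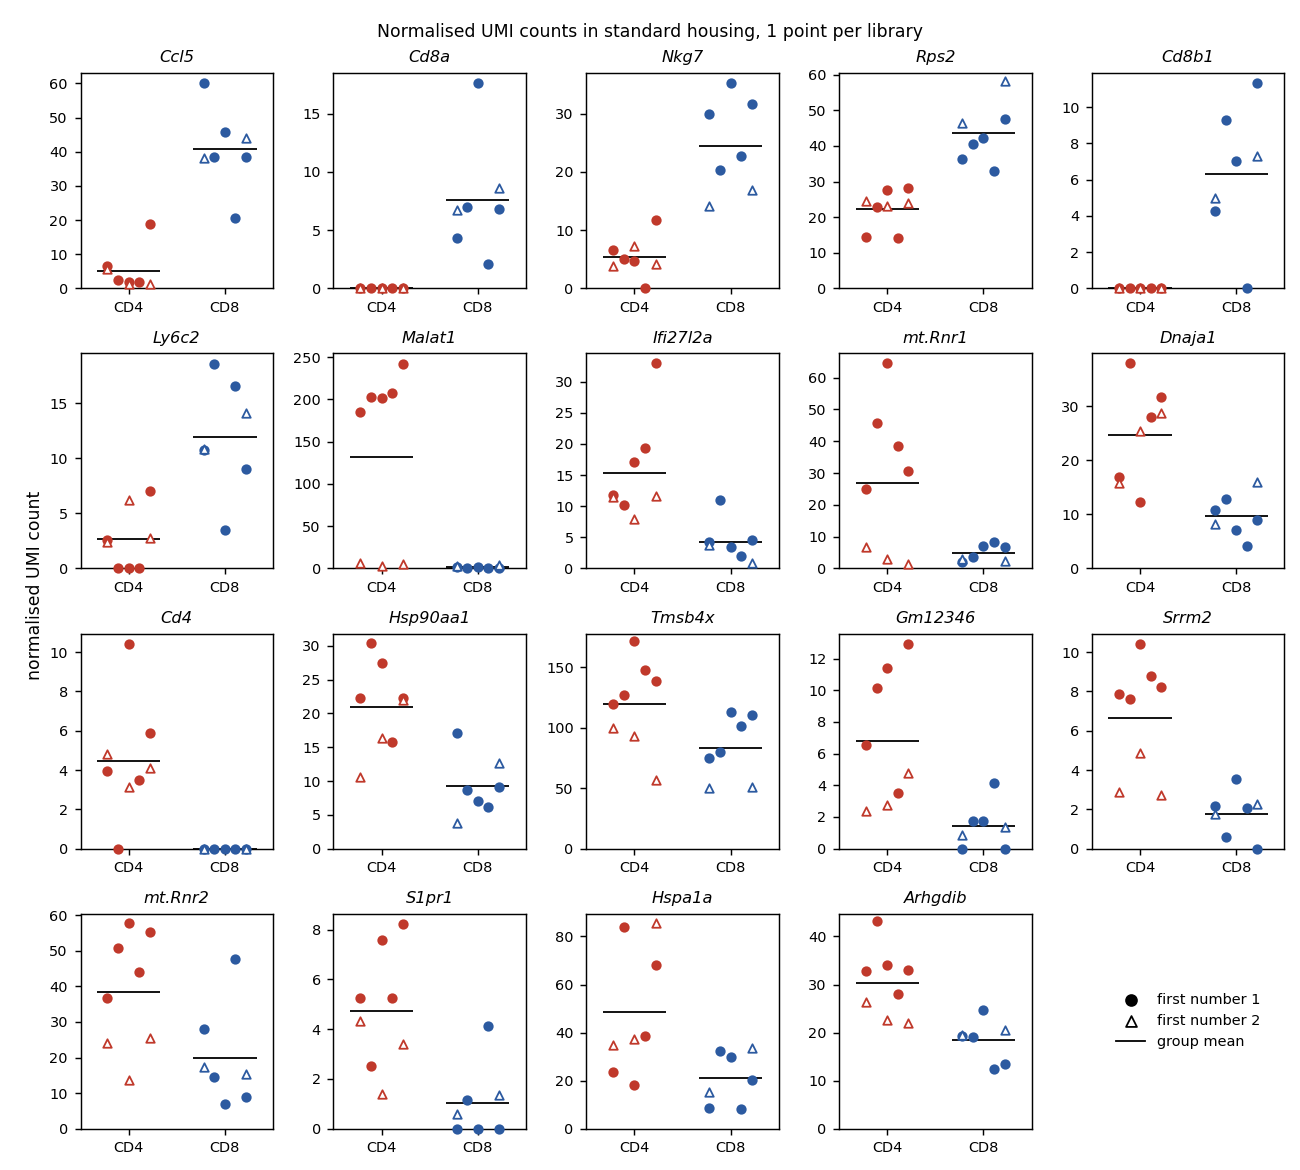
Normalised UMI counts (vertical axes, each starting at 0) of the 19 called genes in the 8 CD4 and 7 CD8 libraries of SE mice, 1 point per library, with filled circles for first number 1, open triangles for first number 2 and a line at the group mean. Ccl5, Cd8a, Nkg7 and Rps2 separate every CD8 library from every CD4 library, and Malat1 and mt.Rnr1 are high in the 5 CD4 libraries with first number 1 and low in the 3 with first number 2.

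The sorting genes followed the labels. Cd4, which encodes the coreceptor for MHC class II (chr6:124864692-124888221, minus strand, GRCm38), had a UMI in 7 of the 8 CD4 libraries, at 0 to 10.4 (median 4.02), and none in any CD8 library. The CD4 library without a Cd4 UMI was replicate 2, which had the lowest UMI total of that group. Cd8a (chr6:71373427-71379173, plus strand) ran from 2.07 to 17.6 in the CD8 libraries (median 6.79). Its neighbour Cd8b1 (chr6:71322788-71337494, plus strand) ran from 0 to 11.3 there (median 7.04), with 0 UMIs in CD8 replicate 4. Both were at 0 in all 8 CD4 libraries. The authors had excluded CD4 samples that expressed the CD8 chains, so this absence was part of the selection, and it is not stated whether a single chain was enough to exclude a sample. Against a floor of 3 UMIs per library, Cd8a was at least 2.19-fold and Cd8b1 at least 1.82-fold higher in CD8, and Cd4 at least 1.09-fold higher in CD4. The adjusted p values (limma) were 7.63e-05, 0.00161 and 0.00573. The T cell receptor complex and its signalling genes did not pass in either direction (0 of the 12 in the table, against 3.92% of all genes). Their median difference was -0.08, against 0.09 over all genes. At an unadjusted p under 0.05 (limma), 1 of them was on each side, against 10.9% of all genes on the CD4 side and 5.77% on the CD8 side. Cd3g, a chain of the CD3 complex on which both populations were sorted, was at 15.8 ± 4.98 (SD, n = 8) in CD4 and 17.4 ± 8.91 (n = 7) in CD8, with a difference of 0.05 (SE 0.26). Cd52, a small surface glycoprotein of lymphocytes, was at 25.0 ± 8.17 and 23.3 ± 6.82. The kinase Lck was at 11 ± 4.57 and 13.1 ± 4.64, and Ptprc, which encodes CD45, at 13.2 ± 6.01 and 6.98 ± 2.70 (difference 0.83, SE 0.32, adjusted p 0.168, limma).

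Message for Ccl5 and Nkg7 was higher in CD8 libraries. Ccl5, a chemokine that draws T cells and monocytes (chr11:83525778-83530518, minus strand), ran from 20.7 to 60.1 in CD8 (median 38.5) and from 1.37 to 18.8 in CD4 (median 2.22). The highest CD4 library, replicate 7, stayed below the lowest CD8 library, so the groups did not overlap. The means were 40.8 ± 11.8 (SD, n = 7) and 5.01 ± 5.93 (n = 8), an 8.15-fold difference, with a log2 difference of -3.14 (SE 0.37, adjusted p 1.34e-06, limma). Nkg7, a protein of cytotoxic granules (chr7:43437073-43438249, plus strand), ran from 14.1 to 35.2 in CD8 (median 22.7) and from 0 to 11.8 in CD4 (median 4.91). It did not overlap either, with a difference of -2.16 (SE 0.38, adjusted p 5.23e-04, limma). Over all 485 genes, 4 had groups that did not overlap (0.825%), and the other two were Cd8a and Rps2. Ly6c2, a surface protein of memory and effector T cells (chr15:75108158-75111970, minus strand), ran from 3.52 to 18.6 in CD8 (median 10.9) and from 0 to 7.06 in CD4 (median 2.51), and the groups overlapped, with a difference of -2.21 (SE 0.47, adjusted p 0.00301, limma). Of its 31-base words, 21.4% also occur in Ly6c1, so part of its count could belong to that gene.

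The table held 6 of 28 listed cytotoxic and effector genes, and Ccl5 and Nkg7 were those that passed. The median difference of the 6 was -1.24, against 0.09 over all genes, of which 3.92% passed. Ctsw, a cathepsin of cytotoxic cells, was at 13.5 ± 8.24 in CD8 and 5.65 ± 2.38 in CD4 (difference -0.93, SE 0.39, adjusted p 0.196). Xcl1, a chemokine for cross-presenting dendritic cells, was at 6.71 ± 4.11 and 2.93 ± 4.47 (-1.53, SE 0.55, adjusted p 0.125). Ifng, the gene of interferon gamma, was at 4.75 ± 3.40 in CD8 and 6.89 ± 5.92 in CD4 (0.51, SE 0.48), and Id2 at 6.97 ± 3.14 and 7.72 ± 3.84 (0.17, SE 0.35). None of these 4 passed. Of 25 listed helper and regulatory genes the table held Icos and Tnfrsf18, both receptors that costimulate T cells. Icos was at 7.64 ± 3.99 in CD4 and 3.51 ± 1.64 in CD8 (0.87, SE 0.39, adjusted p 0.251), and Tnfrsf18 at 5.28 ± 3.49 and 1.59 ± 1.26 (1.26, SE 0.47, adjusted p 0.144). Master regulators such as Foxp3, Gata3 and Tbx21 were not in the table and were not analysed here.

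The largest difference among the 19 was that of Malat1, a long RNA retained in nuclear speckles (chr19:5795690-5802672, minus strand), and it was seen with first number 1. The 5 CD4 libraries with number 1 held 185 to 242 (median 203), while the 3 CD4 libraries with number 2 held 6.72, 2.78 and 5.48. The CD8 libraries ran from 0 to 2.15 with number 1 and held 2.65 and 3.64 with number 2. High Malat1 was thus a property of the number 1 CD4 libraries, and neither the number 1 CD8 nor the number 2 CD4 libraries shared it. The difference was 4.94 over both numbers (SE 0.65, adjusted p 6.27e-06, limma), 7.08 within number 1 and 0.48 within number 2 (adjusted p 0.798). Malat1 was the single gene whose difference changed between the numbers by the interaction test (-6.60, SE 0.64, adjusted p 2.86e-08, limma, 1 of 485 genes or 0.206%). The CD8 libraries with number 2 share an animal number and may not be independent mice, which limits this test and the fit within number 2. In the EE libraries the same split was measured, at 49.9 to 250 in the 6 CD4 libraries with number 1, 4.10 to 8.03 in the 3 with number 2, and 1.96 to 8.23 in all 7 CD8 libraries. What the first number stands for is not stated. The study collected choroid plexus in 2 separate series, which the number may mark, and the UMI totals rise with it in both cell types. The part of either in this pattern was not tested.

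mt.Rnr1, the small ribosomal RNA of mitochondria (chrM:70-1024), had a similar arrangement. It was at 24.9, 45.7, 64.5, 38.6 and 30.6 in the CD4 libraries with number 1, and at 6.72, 3.13 and 1.37 in those with number 2. The 7 CD8 libraries ran from 2.15 to 8.27, so the number 2 CD4 libraries lay within or below the CD8 range. Its difference was 1.91 (SE 0.39, adjusted p 0.00197, limma), 2.71 within number 1 and 0.23 within number 2. The change between numbers was -2.48 (adjusted p 0.324, limma) and did not pass. mt.Rnr2, the large ribosomal RNA of mitochondria (chrM:1094-2675), ran from 36.7 to 57.8 in number 1 CD4, 13.6 to 25.3 in number 2 CD4, and 7.04 to 47.5 in CD8 libraries. Its groups overlapped, with a difference of 1.09 (SE 0.30, adjusted p 0.0348, limma, within numbers 1.47 and 0.29). The call for mt.Rnr2 was lost without CD4 replicate 2, 4, 5, 7 or 8 or CD8 replicate 2, 3 or 7. The mitochondrial messenger RNAs did not follow the ribosomal RNAs. Of the 13 mitochondrial transcripts in the table, 2 passed, against 3.92% of all genes, and the median difference was 0.07, against 0.09. The messages mt.Cytb (57.2 ± 21.2 in CD4, 54.4 ± 27.3 in CD8), mt.Co1 (48.4 ± 22.4, 38.6 ± 14.1), mt.Nd1 (26.9 ± 16.4, 26.5 ± 7.77) and mt.Co3 (11 ± 3.07, 17.8 ± 9.13) did not pass. None of 31 nuclear genes of the respiratory chain and ATP synthase passed (median 0.22, 21 above 0, against 0.09 and 58.6% over all genes). The most abundant were Cox6b1 (difference -0.21, SE 0.32), Atp5b (0.61, SE 0.42), Cox6c (0.59, SE 0.35) and Cox8a (-0.52, SE 0.34).

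**Figure D2:**
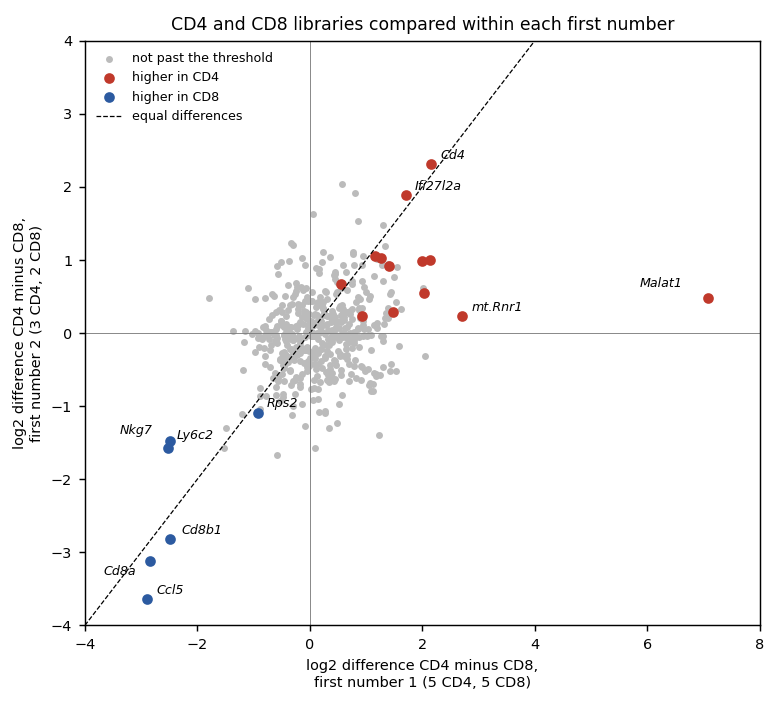
Difference between CD4 and CD8 libraries of SE mice on the log2(normalised count + 1) scale, measured within first number 1 (horizontal axis, 5 CD4 and 5 CD8 libraries) and within first number 2 (vertical axis, 3 CD4 and 2 CD8 libraries), 1 point per gene, with called genes in colour and a dashed line of equal differences. Malat1 lies at 7.08 and 0.48 and mt.Rnr1 at 2.71 and 0.23, while Ccl5, Cd8a, Cd8b1, Cd4, Rps2 and Ifi27l2a lie near the line.

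Each of the 19 called genes had the same sign within both numbers, although 12 of them had a smaller absolute difference within number 2, against 59.2% of all genes. On the CD4 side these were 10 of the 13. Fitted alone, the 10 libraries with number 1 gave 11 calls and the 5 libraries with number 2 gave 5, namely Ccl5, Cd8a, Rps2, Cd8b1 and Cd4. The CD8 libraries with number 2 share an animal number and may come from 1 mouse or 1 pool. The spread between them may then not measure that between mice, so these 5 calls are not shown to hold across mice. In the 5 mice with both cell types, identified by the numbers in the titles, 14 of the 19 genes had the sign of the pooled difference in every mouse. The other 5 genes (Malat1, Ifi27l2a, Cd4, mt.Rnr2 and Hspa1a) had it in 4 of 5 mice. As the 19 genes were called from these same libraries, their shared signs across numbers and mice are no independent support.

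Among the heat shock genes, Dnaja1, Hsp90aa1 and Hspa1a were higher in CD4 libraries. The list holds genes that encode chaperones that hold and refold unfolded proteins, and many of them are induced by heat and other stress. The table held 13 of 29 listed members, of which these 3 passed and 10 did not, against 3.92% of all genes that passed. With the mouse as a fixed term none of the 3 was called, and Dnaja1 and Hsp90aa1 were with animals 5 and 6 as a pool. The 13 differences were all above 0 with a median of 0.73, against 0.09 and 58.6% above 0 over all genes, and 6 of the 13 had an unadjusted p under 0.05 on the CD4 side, against 10.9% of all genes. All 13 stayed above 0 when the libraries were rescaled to the same total, against 240 of the 485 genes. Their summed level was 164 to 374 in CD4 libraries (median 256) and 129 to 237 in CD8 libraries (median 163), so the groups overlapped. The members are not independent, since they were measured in the same pools.

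Dnaja1, a cochaperone that delivers clients to HSP70 (chr4:40722150-40737149, plus strand), ran from 12.3 to 38.1 in CD4 (median 26.7) and from 4.13 to 15.9 in CD8 (median 9.05). All 8 CD4 libraries lay above the CD8 median, and the difference was 1.25 (SE 0.28, adjusted p 0.00519, limma). Hsp90aa1, the inducible cytosolic HSP90 (chr12:110690605-110702728, minus strand), ran from 10.6 to 30.5 in CD4 (median 22.1) and from 3.82 to 17.2 in CD8 (median 8.71), with a difference of 1.19 (SE 0.28, adjusted p 0.00687, limma). Gm12346, a transcribed processed pseudogene (chr11:77293444-77295898, plus strand), ran from 2.4 to 12.9 in CD4 (median 5.67) and from 0 to 4.13 in CD8 (median 1.37), with a difference of 1.77 (SE 0.45, adjusted p 0.0161, limma). Of its 31-base words 83.3% occur in Hsp90aa1, so their reads may be shared and the counts of both are uncertain. The Gm12346 call was lost without CD4 replicate 4 or 7.

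Hspa1a, an inducible HSP70 (chr17:34969190-34972156, minus strand), ran from 18.0 to 85.6 in CD4 (median 37.9) and from 8.27 to 33.7 in CD8 (median 20.4). The difference was 1.12 (SE 0.32, adjusted p 0.0455, limma), and the call was lost without CD4 replicate 2, 5, 7 or 8 or CD8 replicate 1, 4, 5 or 7. It shares 63.8% of its 31-base words with Hspa1b, the neighbouring copy, which was at 14.8 ± 8.68 in CD4 and 6.84 ± 5.20 in CD8 (0.98, SE 0.34, adjusted p 0.113, limma). Among the abundant members that did not pass, Hspa8, the constitutive HSP70, was at 57.5 ± 17.3 and 51.8 ± 6.83 (0.12, SE 0.18). Hsp90ab1 was at 25.8 ± 9.22 and 17.4 ± 7.84 (0.61, SE 0.28), and Dnajb1 at 25.2 ± 13.5 and 14.4 ± 9.52 (0.73, SE 0.37). In EE mice 11 of the 13 differences were above 0, with a median of 0.33 and no member called. Over all genes in EE, 251 of the 485 were above 0, the median was 0.02 and 1.44% were called. There Dnaja1 was at 8.80 ± 4.34 in CD4 (n = 9) and 10.3 ± 8.09 in CD8 (n = 7), against 24.7 ± 8.85 (n = 8) and 9.70 ± 3.87 (n = 7) in SE. Its mean in EE was thus lower in CD4, while its difference on the log2 scale stayed above 0. The change of the Dnaja1 difference between environments did not pass (1.00 on the log2 scale, adjusted p 0.939, limma).

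Immediate early genes, which are transcribed within minutes of stimulation, had no called member among the 15 in the table, while 3.92% of all genes were called. Of the 15, 13 had differences above 0, against 58.6% of all genes, and the median was 0.56, against 0.09. An unadjusted p under 0.05 on the CD4 side was found for 6 of them, against 10.9% of all genes. On the CD8 side 1 member had such a p (5.77% of all genes), Nr4a2, named after its value was seen, with a difference of -1.43 (adjusted p 0.0648, limma). Junb, a subunit of the AP-1 transcription factor, was at 36.6 ± 23.1 in CD4 and 17.0 ± 9.18 in CD8 (1.03, SE 0.32, adjusted p 0.0682, limma). Nr4a1, an orphan nuclear receptor induced by T cell receptor signalling, was at 18.4 ± 13.5 and 9.05 ± 8.07 (1.17, SE 0.48, adjusted p 0.193, limma). The antiproliferative Btg1 was at 15.4 ± 6.75 and 8.67 ± 4.04, and Btg2 at 21.0 ± 13.7 and 14.2 ± 8.07. The summed level of the list ran from 68.3 to 325 in CD4 and from 84.5 to 163 in CD8 libraries, which is a wider range on the CD4 side.

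Among the interferon induced genes, Ifi27l2a was called, 1 of the 12 in the table, against 3.92% of all genes. Ifi27l2a, a small mitochondrial protein strongly induced by type I interferon (chr12:103442167-103443680, minus strand), ran from 7.99 to 32.9 in CD4 (median 11.7) and from 0.91 to 11 in CD8 (median 3.82). Every CD4 library lay above the CD8 median, and a single CD8 library, replicate 2, reached into the CD4 range. The means were 15.3 ± 8.02 (SD, n = 8) and 4.31 ± 3.23 (n = 7), a 3.55-fold difference, with a log2 difference of 1.76 (SE 0.34, adjusted p 0.00143, limma) that was 1.70 within number 1 and 1.89 within number 2. The list as a whole had a median of 0.27, against 0.09 over all genes. Of its 12 differences, 11 were above 0, against 58.6% of all genes. When libraries were rescaled, 10 of the 12 were above 0, against 240 of the 485 genes. Ly6e was at 30.9 ± 5.75 in CD4 and 21.5 ± 7.84 in CD8 (0.58, SE 0.22, adjusted p 0.144, limma), Shisa5 at 19.4 ± 8.18 and 15.7 ± 6.73, Ly6a at 8.32 ± 4.82 and 5.06 ± 3.38, and the immunoproteasome subunit Psmb8 at 13.8 ± 4.31 and 13.6 ± 4.67. MHC class I genes, which interferons also induce, had 0 of 7 members called. B2m, the light chain of MHC class I, was at 58.8 ± 11.9 in CD4 and 56.7 ± 7.90 in CD8 (0.02, SE 0.15), H2.D1 at 59.0 ± 13.0 and 57.3 ± 25.3 (0.14, SE 0.22), and H2.K1 at 40.1 ± 10.5 and 40.7 ± 11.3 (0.01, SE 0.19). H2.Q7, a nonclassical member and the lowest difference of the list, was at 13.8 ± 5.60 and 19.1 ± 8.37 (-0.40, SE 0.31).

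Of 9 trafficking and adhesion genes in the table, S1pr1 passed on the CD4 side and Ly6c2, described above, on the CD8 side. Over all genes 3.92% passed. S1pr1, the sphingosine 1-phosphate receptor that guides T cells out of tissue (chr3:115710433-115715072, minus strand), ran from 1.39 to 8.23 in CD4 (median 4.78) and from 0 to 4.13 in CD8 (median 0.59). It had no UMI in 3 of the 7 CD8 libraries, and its highest CD8 value came from replicate 4, with 2 UMIs. The difference was 1.66 (SE 0.47, adjusted p 0.0389, limma), and the call remained in 4 of the 15 fits that each left out 1 library, those without CD4 replicate 2 or 6 or CD8 replicate 4 or 6. The integrins Itgb7 (14.5 ± 6.94 in CD4, 10.3 ± 2.12 in CD8) and Itgb2 (9.78 ± 3.71, 8.24 ± 5.80), the selectin ligand Selplg (9.71 ± 4.28, 6.90 ± 3.32) and Klf2 (5.00 ± 6.69, 3.20 ± 2.12), the transcription factor that drives S1pr1, did not pass.

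Among 30 genes of the actin cytoskeleton, Tmsb4x and Arhgdib passed, both higher in CD4, and both calls were lost when libraries were rescaled to the same total (adjusted p 0.0710 and 0.100, limma). Tmsb4x, which encodes the actin monomer binding thymosin beta 4 (chrX:167207093-167209315, minus strand), ran from 56.8 to 172 in CD4 (median 123) and from 49.7 to 113 in CD8 (median 80.1). The number 2 libraries were the lowest of each group, and the difference was 0.59 (SE 0.14, adjusted p 0.0111, limma), with 0.56 and 0.67 within the numbers. Arhgdib (chr6:136923655-136941899, minus strand) ran from 21.9 to 43.2 in CD4 (median 30.4) and from 12.4 to 24.7 in CD8 (median 19.3). Its difference of 0.70 (SE 0.20, adjusted p 0.0457, limma) held in 4 of the 15 fits that left out 1 library, those without CD4 replicate 6 or 8 or CD8 replicate 3 or 6, and edgeR on the UMI counts did not call it (adjusted p 0.0987). The list had 24 of 30 differences above 0 and a median of 0.20, against 58.6% and 0.09 over all genes. Its 2 calls stand against 3.92% of all genes. Actb was at 91.0 ± 41.2 in CD4 and 81.1 ± 18.8 in CD8, Tmsb10 at 89.7 ± 18.0 and 64.0 ± 13.4 (adjusted p 0.0724, limma), Pfn1 at 56.3 ± 20.6 and 39.7 ± 13.5 (adjusted p 0.0750, limma) and Cfl1 at 32.2 ± 15.6 and 28.0 ± 8.41.

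Srrm2, a scaffold protein of nuclear speckles and of the spliceosome (chr17:23790532-23824741, plus strand), was in none of the lists. It ran from 2.74 to 10.4 in CD4 (median 7.74) and from 0 to 3.52 in CD8 (median 2.07), and the lowest CD4 values were those of the number 2 libraries. The difference was 1.55 (SE 0.41, adjusted p 0.0256, limma), 2.03 within number 1 and 0.55 within number 2. Its call was lost without CD4 replicate 4, 5 or 7 or CD8 replicate 2 or 7. The other 4 nuclear noncoding RNAs of the table did not move with Malat1 past the test: Neat1, which builds paraspeckles, was at 8.17 ± 4.29 in CD4 and 5.03 ± 2.99 in CD8 (0.55, SE 0.40), Gas5 at 9.39 ± 4.97 and 7.08 ± 2.60, and the U3 small nucleolar RNAs Rnu3b4 and Rnu3b3 at 5.41 ± 4.06 and 5.81 ± 2.52, and at 2.39 ± 2.12 and 2.59 ± 1.74.

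Ribosomal protein genes lay on the CD8 side as a list by the sign of their differences. Of the 79, 1 was called, against 3.92% of all genes, or 1.24% on the CD8 side. Rps2, a protein of the small ribosomal subunit (chr17:24718116-24721929, plus strand), ran from 14.0 to 28.2 in CD4 (median 23.6) and from 33.1 to 58.2 in CD8 (median 42.3), without overlap. The means were 22.3 ± 5.37 (SD, n = 8) and 43.5 ± 8.26 (n = 7), 1.95-fold higher in CD8, with a difference of -0.97 (SE 0.19, adjusted p 0.00154, limma) that was -0.92 and -1.09 within the numbers. Of its 31-base words 48.8% occur in other genes, 40.3% in Rps2-ps10, so the count may be shared with processed copies. Of all 79 cytosolic ribosomal protein genes, 64 had differences below 0 and 15 above, with a median of -0.32, while 201 of the 485 genes were below 0. At an unadjusted p under 0.05, 13 were on the CD8 side, against 5.77% of all genes. The median was -0.35 within number 1 and -0.08 within number 2, against 0.15 and -0.01 over all genes. In EE mice it was -0.26, against 0.02 over all genes, with 67 of 79 below 0, against 234 of the 485. Rescaling to the same total put 73 of the 79 below 0, against 245 of the 485 genes. Their summed level was 1443 to 2061 in CD4 and 1678 to 2202 in CD8 libraries, which overlapped. Abundant members had small differences, with Rps3 at 147 ± 22.2 in CD4 and 153 ± 21.9 in CD8, Rpl13a at 56.3 ± 10.3 and 65.0 ± 4.38, and Rps19 at 45.9 ± 10.8 and 46.0 ± 12.8. The 17 ribosomal protein pseudogenes, a list added after the values were seen, had 0 called members and a median of -0.48. Eef1a1, the elongation factor that brings aminoacyl-tRNA to the ribosome, was at 33.1 ± 10.8 in CD4 and 45.4 ± 9.98 in CD8 (-0.51, SE 0.18, adjusted p 0.117, limma). None of the 11 translation factors passed (median 0.02), with Eif1 at a difference of -0.16 (SE 0.25), Eef2 at 0.02 (SE 0.31) and Eif5a at 0.53 (SE 0.36).

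**Figure D3:**
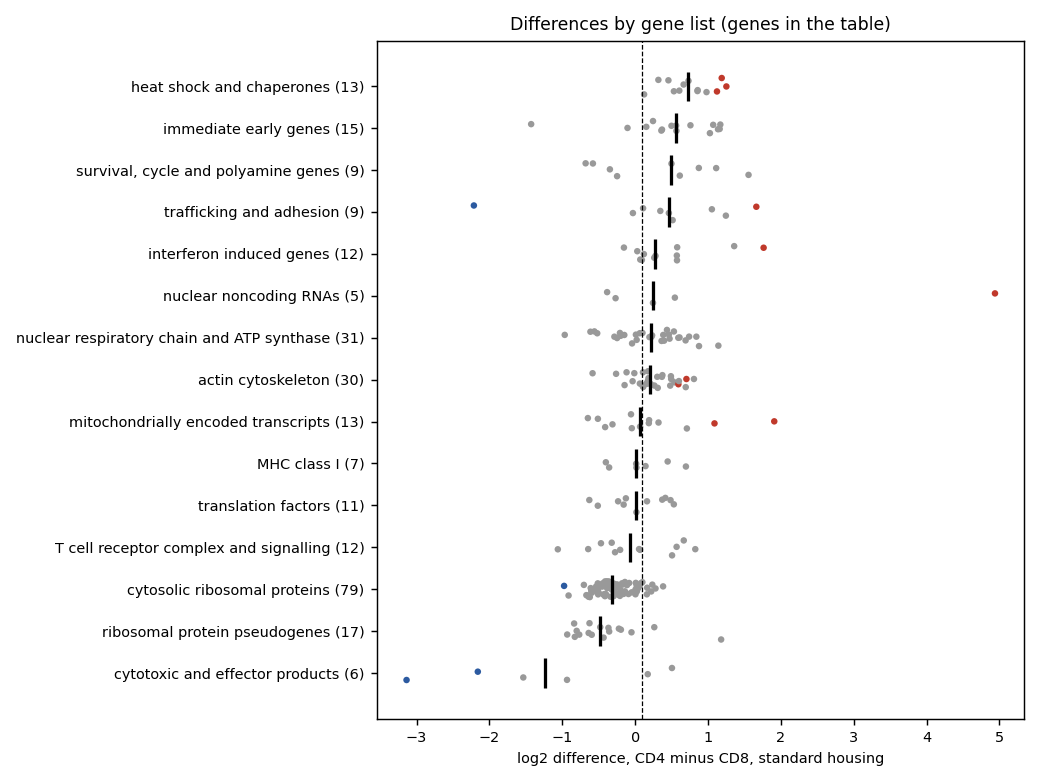
Differences between CD4 and CD8 libraries of SE mice on the log2(normalised count + 1) scale (horizontal axis) for the gene lists with 5 or more genes in the table, 1 point per gene, ordered by their medians (thick bars), with called genes in red (higher in CD4) or blue (higher in CD8) and a dashed line at the median of all genes, 0.09. Heat shock genes have a median of 0.73 and all 13 points above 0, ribosomal protein genes a median of -0.32, and the 6 cytotoxic and effector genes a median of -1.24.

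Of the 9 survival, cycle and polyamine genes none passed (median 0.50), while over all genes 3.92% passed and the median was 0.09. Mat2a, which makes the methyl donor of the cell, was at 10.0 ± 5.80 in CD4 and 6.84 ± 4.36 in CD8, the cyclins Ccnd2 and Ccnd3 at 8.33 ± 2.88 and 7.28 ± 5.02, and at 6.87 ± 4.56 and 8.64 ± 5.79, and the nucleolar Npm1 at 6.47 ± 4.43 and 8.79 ± 2.93. None of 4 proteasome genes passed (median 0.09), which besides Psmb8 were Psmb3 (difference 0.24, SE 0.47), Psme1 (0.07, SE 0.53) and Psme2 (0.12, SE 0.39).

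The same comparison in EE mice, which shares no library with SE, called 7 genes (1.44%): Ccl5, Nkg7, Cd8a, Cd8b1, Cd4, Malat1 and Ifi27l2a. All 7 were among the 19 of SE and had the same sign. For Cd4, Cd8a and Cd8b1 this direction followed from the sorting, so 16 of the 19 genes were open to such a repeat. Ccl5 was at 8.82 ± 4.26 (SD, n = 9) in CD4 EE and 56.1 ± 22.7 (n = 7) in CD8 EE, with a difference of -2.62 (adjusted p 2.92e-06, limma). Nkg7 was at 8.28 ± 5.69 and 21.8 ± 4.67 (-1.64, adjusted p 0.00276, limma), and Ifi27l2a at 18.5 ± 8.61 and 6.55 ± 5.67 (1.82, adjusted p 0.0349, limma). Of the 19 genes, 18 had the same sign in EE on the log2 scale and 11 had an unadjusted p under 0.05 there, while 67.4% of the other 466 genes had the same sign. The exception in sign was Arhgdib, at 22.0 ± 13.2 in CD4 EE and 24.6 ± 5.15 in CD8 EE (-0.39).

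A test of the change of the difference between SE and EE called 0 of the 485 genes (limma, smallest adjusted p 0.939, 18 genes or 3.71% at an unadjusted p under 0.05). It was also 0 with edgeR and DESeq2 on the UMI counts, where 13 and 15 genes had an unadjusted p under 0.05. Among the 19 genes, those with an unadjusted p under 0.05 in this test were Arhgdib (0.00553), mt.Rnr1 (0.0331) and Ly6c2 (0.0418). So the genes called in SE and not in EE were not shown to differ between the environments. Rps2 had a difference of -0.68 in EE (adjusted p 0.246, limma), and Ly6c2 one of -0.89 (adjusted p 0.371, limma), at 6.25 ± 4.77 in CD4 EE and 12.2 ± 8.26 in CD8 EE.

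**Figure D4:**
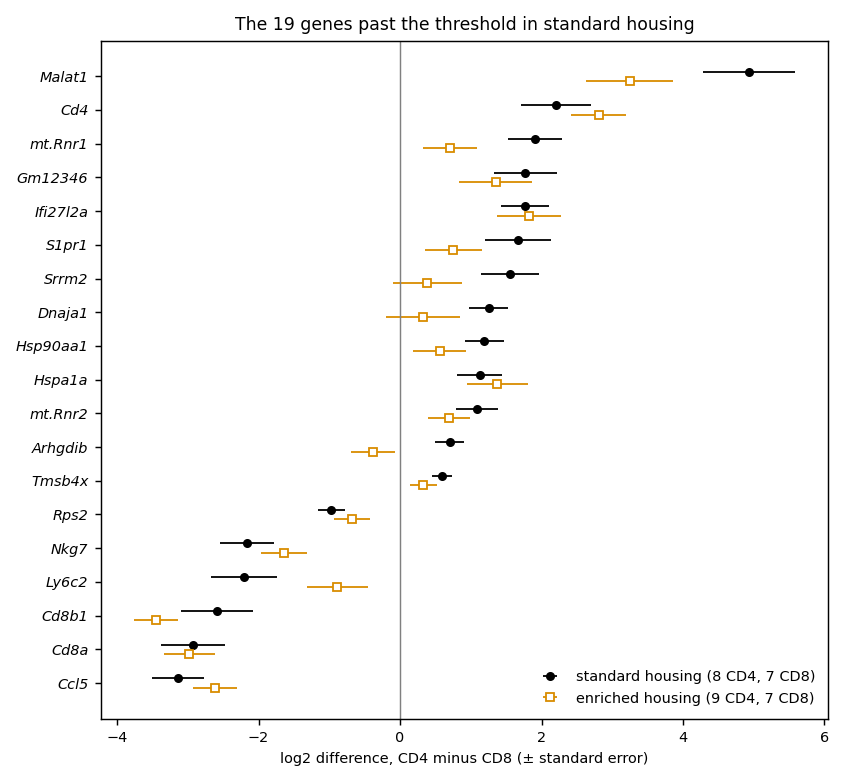
Differences between CD4 and CD8 libraries with their standard errors for the 19 genes called in SE mice, on the log2(normalised count + 1) scale, in SE (filled circles, 8 CD4 and 7 CD8 libraries) and EE (open squares, 9 CD4 and 7 CD8 libraries). The 2 sets of mice share the sign for 18 genes, with Arhgdib at 0.70 in SE and -0.39 in EE as the exception.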

How the data were processed

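Pools of sorted T cells were lysed and their cDNA tagged with unique molecular identifiers (UMIs). The authors trimmed adaptors with cutadapt, mapped reads with STAR (2.4.0a per the labels) to mm10, counted UMIs per gene on a GRCm38 gene model, left out CD4 samples that expressed the CD8 chains, removed genes of low abundance and normalised depth with DESeq2. The deposited values are this normalised count, a signal made by the authors from UMI counts and 1 size factor per library, and the table holds 485 genes and 31 libraries. It is a subset of genes, so totals are not full depths. Whether counting used strand is not given in the sources used here.

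UMI counts were recovered as whole multiples of the value of 1 UMI, and 100% of values came out whole within 0.01. The count models (edgeR 4.0.16, DESeq2 1.42.0) on these reads were alternatives and called 26 and 27 genes. The floor of detection was 3 UMIs and covers counting error only. Genes were tested with limma 3.58.1 (R 4.3.3) on log2(value + 1) with a trended prior, the first title number as a covariate, two-sided, with Benjamini-Hochberg adjustment over the 485 genes, all above 0 in at least 1 library, at a threshold of 0.05. On simulated counts for this comparison (485 genes) limma called 55% of 100 genes with a true log2 change of 1, 97% of 100 with a change of 2 and 0.702% of 285 unchanged genes. The simulation changed 200 of the 485 genes, far more than were called here, which eases the adjusted threshold. It held no effect of the first number or of a shared mouse, so the shares of changed genes called may be too high for these data. Cells and totals were compared by exact permutation over 6435 splits, two-sided. No pair of libraries in a group agreed within sampling noise. P-values measure the spread between libraries, of which some may share an animal.

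A mouse was identified by first number and animal number in the titles, and 5 mice gave both cell types. The column names of CD8 SE replicates 5 and 6 could instead mean a pool of animals 5 and 6, which was tried as an alternative. The deviations of libraries of the same mouse correlated between -0.26 and 0.01, and the consensus correlation was 0.11. The random mouse block called 21 genes, including all 19.

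The named genes were all called genes, the sorting genes, genes that passed an interaction, and of each list up to 4 further members of highest mean, of which 1 ribosomal protein gene is not reported here. The comparison, lists and named genes were chosen with earlier results of these data known. Positions and shared 31-base words come from GENCODE vM21 (GRCm38), in which 470 of the 485 symbols were found. A dot in a symbol stands for a hyphen.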

Additional observations from a re-analysis of the deposited data

Results flagged for a closer look

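Within the groups of 8 CD4 and 7 CD8 SE libraries, 6 values of the called genes lay far from the others of their group. In all, 42 groups were tested, not all of them groups of called genes, and chance flags about 1 in 20. Each of the 6 was the highest of its group, and that rate may not hold for low counts with a skewed spread. CD4 replicate 7 had the highest Ccl5 of its group, 18.8 (median 2.22, next highest 6.55), and the highest Ifi27l2a, 32.9 (median 11.7, next 19.3). CD8 replicate 2 had an Ifi27l2a of 11 (median 3.82, next 4.52), and CD8 replicate 3 a Cd8a of 17.6 (median 6.79, next 8.64). CD8 replicate 4 had a Gm12346 and an S1pr1 of 4.13 each (medians 1.37 and 0.59, next 1.76 and 1.37), where each value stands for 2 UMIs. The calls of Ccl5, Ifi27l2a and Cd8a were kept in all 15 fits that each left out 1 library.

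The difference of Malat1 between CD4 and CD8 changed by -6.60 on the log2 scale from first number 1 to first number 2, which passed the interaction test. The value held as the single call when each library was left out in turn and under each other alternative tried for that test.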

How the results depend on the processing

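Of the 19 called genes, 13 were kept in all 15 fits that left out 1 library, and counts of calls ran from 14 (without CD4 replicate 7) to 19. Over all alternatives, 493 of 602 repeats of a called gene kept the call, 109 lost it and 0 changed sign. The count of 19 became 10 with a minimum mean of 5 (362 genes tested, which removed 6 of the called genes), 11 within first number 1 (10 libraries) and 5 within number 2 (5 libraries). With a replicate block it was 21 for the mouse as a random and 9 for the mouse as a fixed term (11 libraries), which lost Arhgdib, Cd4, Dnaja1, Hsp90aa1, Hspa1a, Ifi27l2a, Ly6c2, S1pr1, Srrm2 and mt.Rnr2, with fewer samples. With animals 5 and 6 as a pool, the random block gave 22 calls and the fixed block 13 (12 libraries). The random block, the one run in the other comparisons, left their numbers of calls at 7 in EE, 0 between environments and 1 between first numbers. Pseudocounts of 0.5 and 4 gave 17 and 24 calls, TMM factors 17, no first number term 14, the mean of CD8 replicates 5 and 6 as 1 library 17, and leaving out both 17. DESeq2 split its 27 calls into 13 higher in CD4 and 14 higher in CD8. In EE, the 7 calls became 11 with edgeR and 20 with DESeq2, and the cause was not tested. The Malat1 interaction remained 1 call in all fits that left out 1 library, where a lone CD8 library with number 2 was assumed to vary like the others. The difference in sorted cells ran from -1.08 to 0.75 and that in log2 UMI total from 0.03 to 0.52 when 1 library was left out. The cells reversed without CD4 replicate 8 (0.286) and without CD8 replicate 2 (0.75). Low counts limit Cd4, Cd8a, Cd8b1, S1pr1, Gm12346, Srrm2 and Ly6c2, which often rest on fewer than 10 UMIs per library. Other called genes, among them Ccl5 and Nkg7, had such counts in most libraries of their lower group.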
